A study of Drosophila melanogaster with 4 samples.

Results

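On the large autosomal arms, elongating RNA polymerase II formed 285 clusters of 10 kb or more, which are the subject here. They were selected on their width: enriched clusters on 2L, 2R, 3L and 3R whose first and last base, in the deposited list of the whole replicate set (the combined list), span at least 10000 bp. They are 285 of 4351 enriched clusters on these arms (6.55%) and of 5826 clusters in the whole combined list. The width that chose them is a description, as are their other values from that list, and no test is made of them.

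The cells were CME-W1-Cl.8+, known as Clone 8, a *Drosophila melanogaster* line labelled male. It came from the dorsal mesothoracic disc, the primordium of the wing, of larvae in the third instar. Chromatin was immunoprecipitated with ab5095, an antibody to the carboxy-terminal heptad repeat of the polymerase phosphorylated at serine 2. The series has 2 immunoprecipitated libraries (replicates 1 and 2) and 2 inputs, all of the same untreated line, and separate input values were not analysed here. The labels do not say whether the replicates were separate cultures, so differences between them may be technical. The lists state no read numbers, so depth is unknown. All positions are FlyBase release 5.

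RNA polymerase II starts transcription with a tail that is mostly phosphorylated at other residues of the repeat. Kinases of the elongation stage, P-TEFb (Cdk9) and Cdk12, then add phosphate at serine 2, and the mark generally builds up along gene bodies towards their ends. A wide stretch of this mark can therefore be a long transcribed gene or several active genes side by side. These lists hold no genes and were not joined to any, so neither "domain" nor "gene" is used for a cluster below. Elongation is known from the antibody only.

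The broad clusters were few but took much of the marked length. Together they spanned 5.07 Mb, 27.3% of the 18.5 Mb inside enriched autosomal clusters and 5.25% of the 96.6 Mb of these arms. Most were close to the minimum: 160 measured 10 to 15 kb, 61 measured 15 to 20 kb, 56 measured 20 to 50 kb and 8 measured 50 kb or more. The median width was 13959 bp, with quartiles at 11422 and 18877 bp. The 8 widest held 12.6% of the length of all 285. The minimum fell within a smooth decline of widths, as 73 autosomal clusters measured 9 to 10 kb and 56 measured 10 to 11 kb. Just inside it lay 2R from 2153533 to 2163535 (10003 bp, log2 enrichment 0.99), 2R from 5320208 to 5330215 (10008 bp, 2.18) and 3L from 12511113 to 12521139 (10027 bp, 1.55). Just outside it lay 3R from 11094851 to 11104849 (9999 bp, 0.90), 3R from 2897104 to 2907099 (9996 bp, 2.27) and 2R from 17571896 to 17581881 (9986 bp, 1.14). The log2 values on both sides of the minimum overlapped.

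Broad clusters had a median log2 enrichment above that of the narrower autosomal ones, and their values spread over most of the autosomal range. The log2 enrichment is the authors' own value for each cluster, and what it is relative to is not stated. Its median was 1.47 in the 285 broad clusters (quartiles 1.09 and 1.77, range 0.42 to 3.54) and 0.70 in the 4066 narrower autosomal ones (quartiles 0.37 and 1.24, range 0.01 to 3.86). A log2 enrichment of 1 or more was found in 80.4% of broad clusters and 33.3% of narrower ones, and one of 2 or more in 14.7% and 8.49%. Broad clusters made up 6.55% of all autosomal clusters. They held 1 of the 10 highest autosomal values, 7 of the 100 highest and 26 of the 285 highest (9.12%). Among autosomal clusters of 5 to 10 kb the median was 1.12.

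Within the broad clusters, log2 enrichment hardly went with width. Spearman's rho between them was 0.04 over the 285 broad clusters and 0.65 over the 4066 narrower ones, where points are clusters of one list that share its libraries. These sets cover unlike ranges of width, so a change at 10 kb cannot be read from the difference. The median log2 enrichment was 1.45 for 10 to 15 kb, 1.53 for 15 to 20 kb, 1.50 for 20 to 50 kb and 1.48 for 50 kb or more. The 10 highest broad clusters measured 10.9 to 21.8 kb, and among the 8 of 50 kb or more no value exceeded 1.72.

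**Figure D1:**
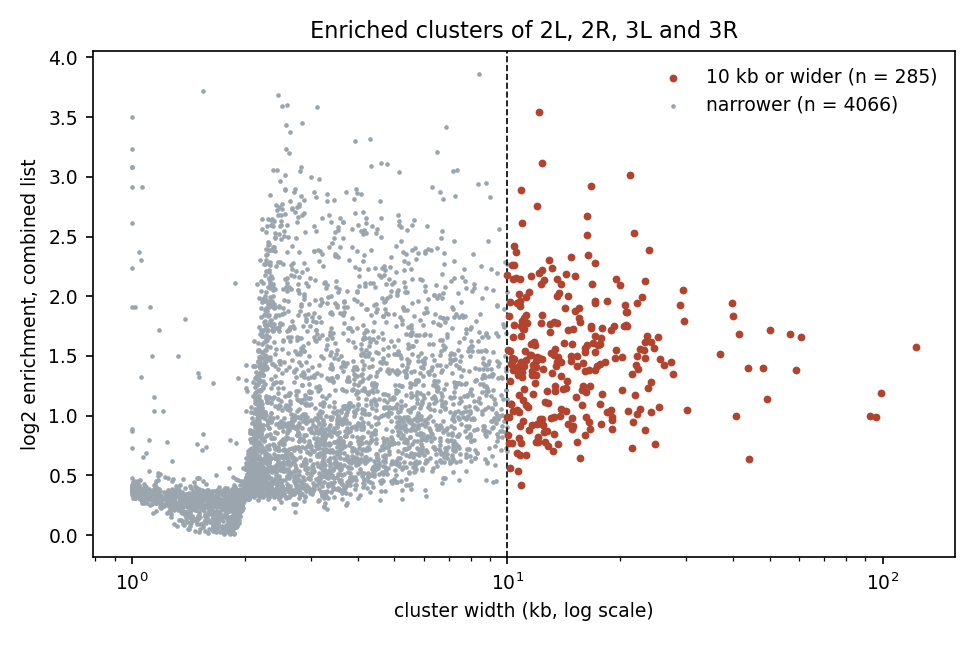
Log2 enrichment in the combined list against cluster width (kb, log scale) for enriched clusters of the 4 autosomal arms; each point is a cluster, and the dashed line marks 10 kb. The 285 broad clusters have a median of 1.47 and a Spearman's rho with width of 0.04. The 4066 narrower ones, over another range of width, have a rho of 0.65.

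The arms carried broad clusters at similar densities. There were 86 on 3R, 70 on 3L, 68 on 2L and 61 on 2R, which is 3.08, 2.85, 2.96 and 2.88 per Mb. By the same width minimum, the lists of the replicates held 166 and 221 broad autosomal clusters (193.5 ± 38.9, SD, n = 2), 1.72 and 2.29 per Mb. Per Mb the replicates gave 2.24 ± 0.380 on 3R, 1.96 ± 0.502 on 2R, 1.93 ± 0.461 on 2L and 1.83 ± 0.288 on 3L (SD, n = 2). 3R had the highest density in each of the 3 lists, but the SDs are as large as most differences between arms. Replicate 2 had the higher density on every arm, so these SDs include a shift that the arms share. They do not measure the spread of the differences between arms, which were not tested. Broad clusters held 31.2% of the marked length of 3R and 21.9% of that of 2R in the combined list. In the replicates these shares were 26.4 ± 2.40% on 3R and 16.7 ± 3.19% on 2R (SD, n = 2), and 2R was the lowest arm in each list. The median log2 enrichment of broad clusters ran from 1.45 on 2L to 1.49 on 3R in the combined list, from 1.57 on 2L to 1.83 on 2R in replicate 1 and from 1.52 on 3L to 1.63 on 3R in replicate 2.

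The autosomal arms had 2.95 clusters of this width per Mb in the combined list, and X, present once in male cells, had 4.91 (110 clusters). In the replicates the autosomal density was 2.00 ± 0.403 and that of X 3.30 ± 0.694 per Mb (SD, n = 2). X was the higher in both replicates, and the difference was not tested.

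The widest broad clusters differed in how continuous they were. The widest lay on 3L from 22279915 to 22402371 (122 kb) and scored 1.58. It was 1 cluster of 122222 bp in replicate 1 (1.62) and 1 of 122175 bp in replicate 2 (1.54), widths that differ by 47 bp. The cluster on 3R from 19113931 to 19174398 (60.5 kb, 1.66) was likewise whole, at 60273 bp (1.74) and 60392 bp (1.60). So was 2L from 489626 to 546201 (56.6 kb, 1.69), the widest of its arm, with 56477 bp (1.79) and 56578 bp (1.61).

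On 3R, 2 further clusters among the 10 widest were whole in both libraries. One ran from 15615980 to 15663964 (48.0 kb, log2 enrichment 1.40), with 1.38 in replicate 1 and 1.43 in replicate 2. The other ran from 1086805 to 1137093 (50.3 kb, 1.72) and had 1.55 in replicate 1 and 1.92 in replicate 2. The second one began 1878 and 1796 bp inside the combined cluster in replicates 1 and 2.

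Other wide clusters were broken in a single library only. Replicate 1 broke 3R from 21340250 to 21439476 (99.2 kb, log2 enrichment 1.19) into pieces of 94060 bp (1.20) and 2959 bp (0.60), parted by 1664 bp, where replicate 2 had 1 cluster of 98928 bp (1.20). It also broke 2R from 5487827 to 5546796 (59.0 kb, 1.39), the widest of that arm, into 5961 bp (1.52) and 49616 bp (1.32), parted by 1105 bp, where replicate 2 had 1 cluster of 57763 bp (1.47). Replicate 2 broke 3R from 4892255 to 4985094 (92.8 kb, 1.00) into 12412 bp (0.86) and 78237 bp (0.97), parted by 1819 bp, where replicate 1 had 1 cluster of 92449 bp (1.06). In each of these a short stretch outside the clusters of 1 library, but inside a cluster of the other, lay nearer to one end than to the middle.

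A further pair was uneven along its length in both libraries. The 96.2 kb on 3L from 5147092 to 5243275 (0.99) had its weakest pieces inside. In replicate 1 the outermost of 6 pieces had log2 values of 1.10 and 1.11, and the lowest, the third, had 0.45. In replicate 2 the outermost of 5 pieces had 1.11 and 1.02, and the 3 between them had 0.55, 0.57 and 0.70. The 49.4 kb on 2L from 177130 to 226497 (1.14) was higher towards its right end. There its widest piece had 1.27 in replicate 1 and 1.43 in replicate 2, while the leftmost pieces had 0.46 and 0.38.

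**Figure D2:**
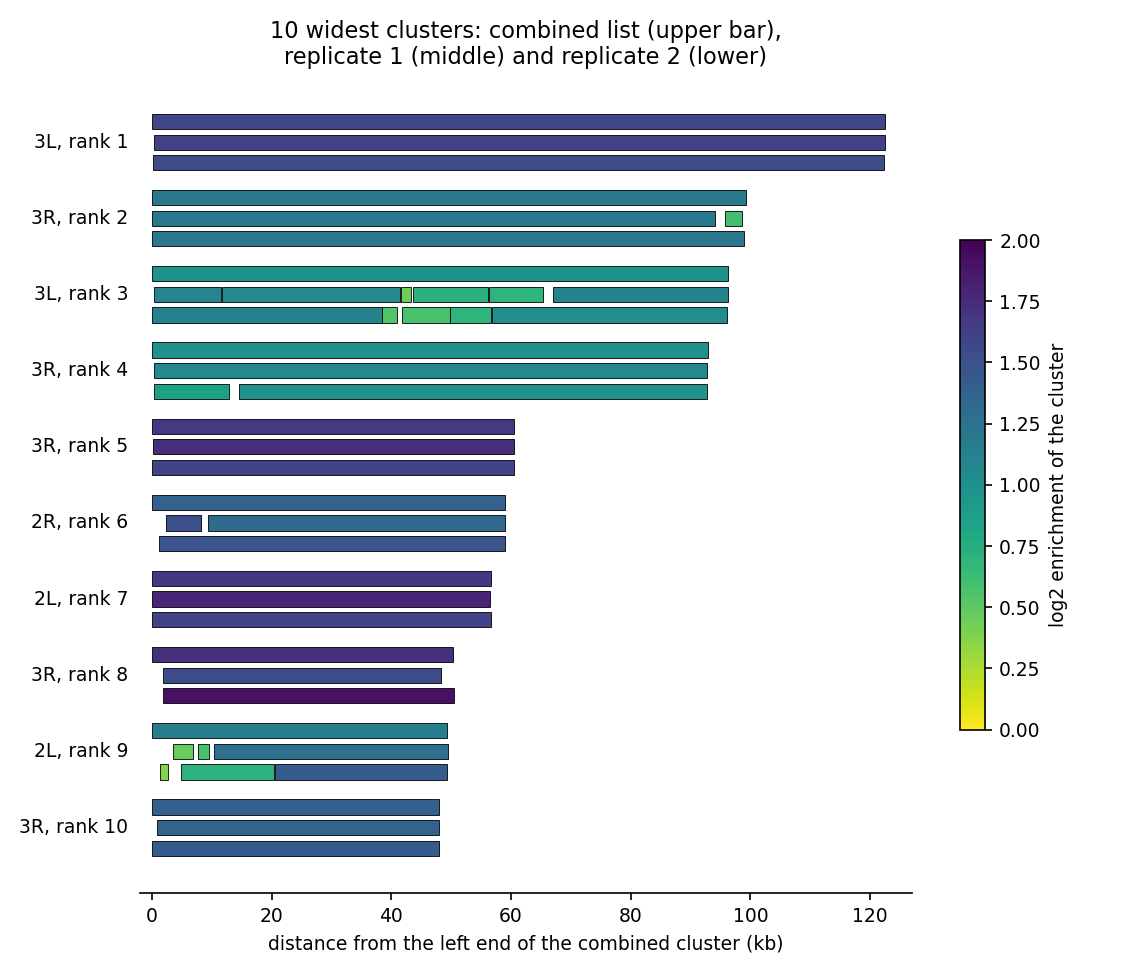
The 10 widest broad clusters drawn to scale from their left end (kb), labelled by arm and width rank; for each, the upper bar is the combined list, the middle bars are replicate 1 and the lower bars replicate 2, coloured by log2 enrichment. 5 of the 10, among them the widest at 122 kb, are a single bar in all 3 lists, and the third is in 6 and 5 pieces.

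Every broad cluster was seen in both libraries. All 285 overlapped a cluster of replicate 1 and of replicate 2 by at least 1 bp, where 76.6% of all 4351 autosomal clusters did. The members were chosen by width in a list built from these same libraries, so nothing is read from that difference. Replicate 1 clusters covered 90.5% of the summed length of the broad clusters and replicate 2 clusters 95.6% (93.0 ± 3.60%, SD, n = 2). Both covered 88.6% of it, replicate 1 alone 1.90%, replicate 2 alone 6.99% and neither 2.54%, or 129 kb. In 155 of the 285, both replicates covered at least 90% of the width.

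The ends of the broad clusters were placed closely. The outermost ends found in replicates 1 and 2 lay a median of 100 bp apart (quartiles 30 and 401.5 bp, 570 ends), and 364 of 570 (63.9%) lay within 200 bp of each other. At 32 ends they were over 2 kb apart. Measured from the combined cluster, the median distance was 112 bp in replicate 1 and 57.5 bp in replicate 2. Replicate ends mostly lay inside the combined cluster: 81 ends in replicate 1 and 44 in replicate 2 were inset by over 1 kb, and 2 and 5 ran over by as much.

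In 5 broad clusters a replicate covered less than 50% of the width; these were picked for that after their values were seen. On 3R from 24724631 to 24735488 (10.9 kb), the broad cluster with the lowest log2 enrichment of all (0.42), replicate 1 covered 51.9% in 2 pieces and replicate 2 only 20.6%. On 2R from 7551912 to 7563388 (11.5 kb, 1.51), replicate 1 covered 29.6% with a piece at 2.37, and replicate 2 covered the whole at 1.43. On 3L, from 24020671 to 24031308 (0.69), from 3484055 to 3496679 (0.78) and from 7768683 to 7787661 (0.99), the lower share was 40.6%, 42.7% and 44.4%. The width of these 5 therefore rests on 1 library or on the combination.

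Fewer than 50% of the broad clusters were a single cluster in both libraries. Those in 1 piece in each numbered 123 of 285 (43.2%, exact binomial 95% interval 37.3 to 49.1%, counting error over clusters only), where 65.8% of all autosomal clusters were. As the choice by width bears on this share, nothing is read from the difference either. Whole here means overlapped by exactly 1 cluster of the replicate, whatever share of the width that cluster covered. The cluster on 2R from 7551912 to 7563388 thus counts as whole, though replicate 1 covered 29.6% of it. Replicate 1 left 139 whole (48.8%) and replicate 2 left 192 (67.4%), a mean of 58.1 ± 13.1% (SD, n = 2). A break, meaning a stretch between pieces that lies outside all clusters of the replicate, was found in replicate 1 only in 70, in replicate 2 only in 16 and in both in 76 (of all autosomal clusters, 3.75% had an internal break in both). In 1 of the 70, replicate 2 had 2 pieces that touched, with no break between them. Replicate 1 had more pieces in 94 broad clusters, replicate 2 in 24, and 167 had the same number. Most broken ones were in few pieces, as only 20 had 3 or more in each library.

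How often a broad cluster was whole went with its log2 enrichment. When the 285 were put in 4 groups by log2 enrichment, 6 of 71 were whole in both libraries in the lowest group (8.45%), 26 of 71 in the next (36.6%), 41 of 71 in the third (57.7%) and 50 of 72 in the highest (69.4%). The median log2 enrichment of these groups was 0.92, 1.35, 1.60 and 2.10. Breaks per 100 kb were 8.54, 4.54, 2.72 and 2.12 in replicate 1, and 5.54, 2.35, 1.15 and 1.50 in replicate 2. By width, 45.6%, 42.6%, 35.7% and 50.0% were whole at 10 to 15, 15 to 20, 20 to 50 and 50 kb or more. In the same order, breaks per 100 kb were 5.28, 5.41, 4.32 and 1.10 in replicate 1, and 3.13, 2.61, 2.76 and 0.78 in replicate 2. The last value of each series is over 8 clusters. Enrichment and breaks come from the same libraries, so this is a description and has no test.

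**Figure D3:**
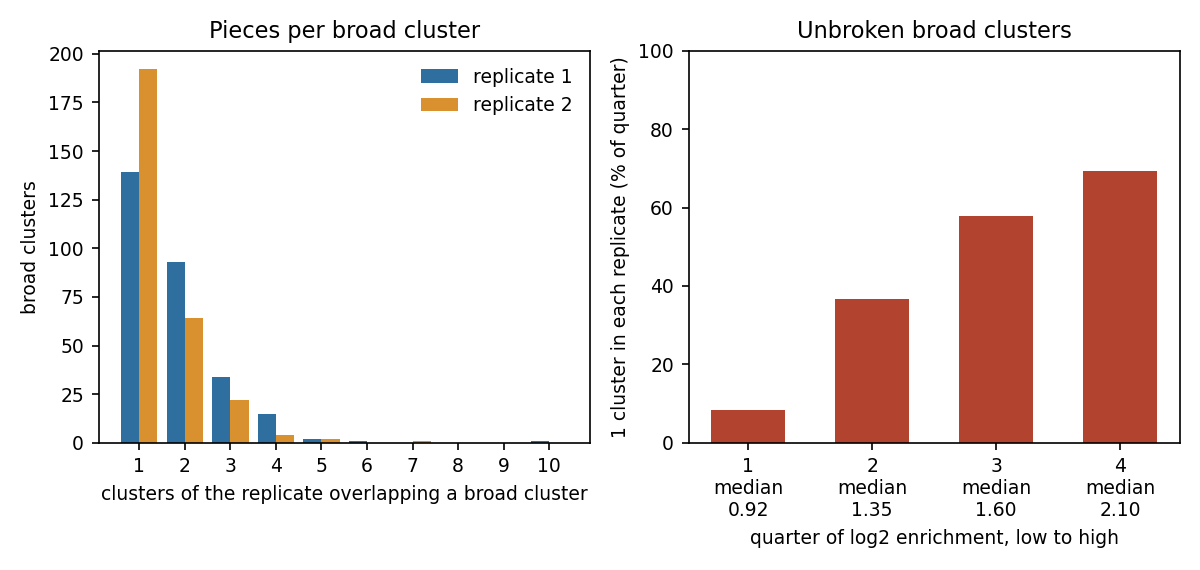
Left, number of broad clusters (of 285) by how many clusters of replicate 1 or replicate 2 overlapped them; right, percentage that were 1 cluster in both replicates, in 4 groups of increasing log2 enrichment (71 or 72 each). 139 and 192 were in 1 piece, and the percentage whole is 8.45% in the lowest group and 69.4% in the highest.

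The breaks were short, and most breaks of replicate 1 met no break of replicate 2. Replicate 1 had 228 breaks in 146 broad clusters, with a median length of 711.5 bp (quartiles 254.75 and 1487 bp), and replicate 2 had 133 in 92, with a median of 372 bp (166 and 881 bp). Breaks of 2 kb or more numbered 27 and 8. Of the replicate 1 breaks, 159 (69.7%) were centred in the middle 50% of the broad cluster, as were 85 (63.9%) in replicate 2. Only 6 in each were centred within 10% of an end. A break needs a piece on each side, and an uncovered end does not count as a break. This limits how near to an end a break can be centred, so nothing is read from these positions. The narrowest piece of a broken cluster measured 1306 bp in replicate 1 and 1321 bp in replicate 2.

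Breaks of replicate 1 met a break of replicate 2 in 64 of 228 cases (28.1%, exact binomial 95% interval 22.3 to 34.4%), and those of replicate 2 one of replicate 1 in 63 of 133 (47.4%, 38.7 to 56.2%). Both intervals give counting error over breaks only. They take breaks of the same cluster as independent, which they need not be, so they may be too narrow. When a shared break had to be covered to 50% by each other, the share of replicate 1 was 6.14%, and when breaks under 500 bp were ignored it was 19.6%. Only the 76 broad clusters with a break in both libraries could hold a shared stretch, and 55 did. The stretches inside a break of both libraries numbered 66, with a median of 270 bp, and 10 measured 1 kb or more. Uncovered ends are not counted among these stretches. The combined list spans all of them by construction. The longest measured 1846 bp, on 3L from 5766274 to 5768119, inside a 23.7 kb cluster with a log2 enrichment of 1.23. The next were 1398 bp on 2R from 3384830 to 3386227, inside a cluster at 2.00, and 1377 bp on 2L from 20909034 to 20910410, inside one at 1.05. Breaks of replicate 1 that were shared had a median of 919 bp, and those not shared 546 bp.

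Pieces of one broad cluster differed in width and enrichment. The wider piece takes the larger share by definition, and the highest piece exceeds the lowest, so only the sizes are described. Among those in 2 pieces, the wider piece took a median of 71.9% of the width in replicate 1 (93 clusters) and 72.2% in replicate 2 (64 clusters). It had the higher log2 enrichment in 73 of 93 and 50 of 64. Width and log2 enrichment also rose together over the narrower autosomal clusters of the combined list (Spearman's rho 0.65). The median log2 enrichment was 1.38 in the wider and 0.88 in the narrower piece in replicate 1, and 1.52 and 0.83 in replicate 2. Over all broken clusters, the highest and lowest piece differed by a median of 0.60 in replicate 1 (146 clusters) and 0.68 in replicate 2 (93 clusters). The most extreme spread within 1 broad cluster was 3.22 in replicate 1 and 2.57 in replicate 2.

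The most broken clusters were weakly marked among the broad ones. On 3R, 44.2 kb from 26149986 to 26194189 was in 10 pieces in replicate 1 and 7 in replicate 2, none wider than 8173 bp, and scored 0.63, with length-weighted means of 0.64 and 0.67 in the replicates. It was the eleventh widest and the fourth lowest in log2 enrichment. After it and the 96.2 kb cluster on 3L described above came 4 clusters with 6 breaks each over both libraries. They were 2R from 17209716 to 17228788 (5 and 3 pieces, 0.97), 3L from 2628562 to 2643498 (4 and 4 pieces, 0.91), 3R from 24343849 to 24367164 (3 and 5 pieces, 0.88) and 3R from 26102664 to 26143425 (4 and 4 pieces, 1.00). The last had a log2 enrichment just under 1 before rounding, and the other 5 were lower. Only the 44.2 kb cluster lay below the median of the narrower autosomal clusters (0.70).

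The same 10 kb minimum was met within single libraries by most broad clusters, though not by all. In 150 of 285 (52.6%) both replicates held a cluster of 10 kb or more, in 64 only replicate 2 did, in 10 only replicate 1 did, and in 61 neither did. Those with one in both had a median log2 enrichment of 1.62 and a median width of 17045.5 bp. The 61 with none had 1.08 and 11909 bp. Conversely, 165 of 166 broad clusters of replicate 1 and 219 of 221 of replicate 2 met a broad combined cluster. The 3 that did not spanned 2 narrower combined clusters each, on 3R from 2898980 to 2916790 (replicate 1, log2 enrichment 2.34), and on 2R from 19324488 to 19343946 (1.12) and 3L from 4222343 to 4236846 (1.97) in replicate 2.

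Log2 enrichment of the broad clusters was similar in the 2 libraries. Each replicate was given the mean of its pieces, weighted by length. Bases outside its pieces were left out, so a library that covered only part of a broad cluster can lie above the combined value. On 3R from 24724631 to 24735488 the replicates had 0.64 and 0.52 against 0.42 in the combined list, with 51.9% and 20.6% covered. The median was 1.50 in replicate 1 (quartiles 1.11 and 1.84) and 1.44 in replicate 2 (1.15 and 1.78). Across the 285 broad clusters, which share their libraries and are not replicates, Pearson's r was 0.933 and Spearman's rho 0.926. Replicate 2 minus replicate 1 had a mean of -0.03 ± 0.19 (SD over clusters), and 220 of 285 lay within 0.2. Replicate 2 was the lower in 156 of 285 (54.7%), where it was the lower in 67% of all 3333 autosomal clusters found in both. The median difference was -0.02 for broad clusters and -0.10 for the 3048 narrower ones. Within the broad clusters it was 0.02 in the group of lowest log2 enrichment and -0.07 in the highest.

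In 5 broad clusters the libraries differed by over 0.5, and the extremes among them were picked after their values were seen. Replicate 2 minus replicate 1 was -0.94 on 2R from 7551912 to 7563388, where replicate 1 covered only part of the width. It was -0.80 on 3L from 14743730 to 14756136 (2.87 in replicate 2, 3.67 in replicate 1) and -0.69 on 3R from 8327041 to 8337933 (2.56 in replicate 2, 3.25 in replicate 1). It was 0.63 on 3R from 25923915 to 25941579 (1.74 in replicate 2, 1.11 in replicate 1), which replicate 1 broke into 4 pieces. The combined value lay between those of the replicates in 205 of 285, below both in 72 and above both in 8.

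**Figure D4:**
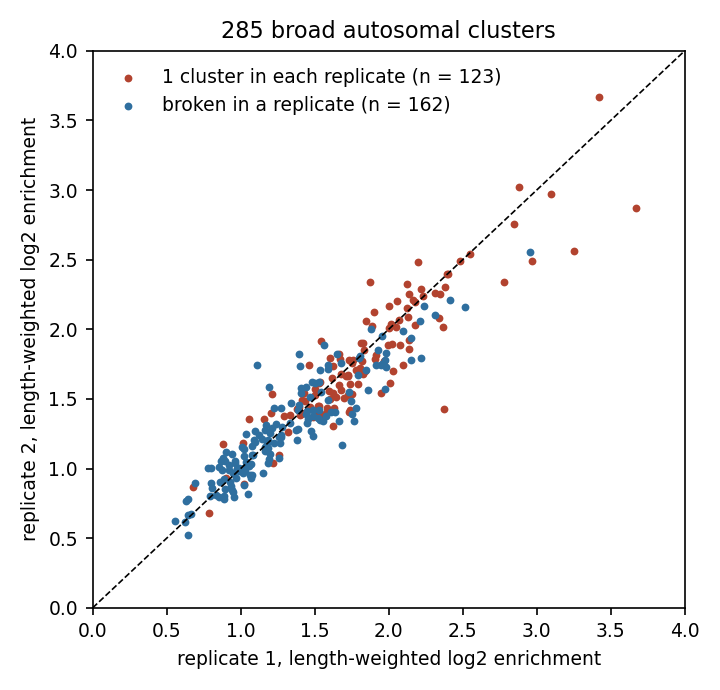
Length-weighted log2 enrichment of each broad cluster in replicate 1 (horizontal) and replicate 2 (vertical), with the line of equality dashed; colours separate the 123 that were 1 cluster in each replicate from the 162 broken in at least 1. Points follow the line (mean difference -0.03 ± 0.19), and unbroken ones reach the higher values.

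Of the 10 broad clusters with the highest log2 enrichment, 8 were whole in both libraries. The highest lay on 3R from 17121084 to 17133247 (12.2 kb) and scored 3.54, and its replicate values were 3.42 and 3.67. It ranked seventh among all autosomal clusters. The next was 3L from 14743730 to 14756136 (12.4 kb, 3.11), one of the clusters that differed most between libraries.

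The third was 2R from 9212303 to 9233614 (21.3 kb, 3.02), with replicate values of 3.10 and 2.97. Its ends were alike too, at 21099 and 21076 bp of width. It was followed by 3R from 14737900 to 14754585 (16.7 kb, 2.93), 3R from 8327041 to 8337933 (10.9 kb, 2.89), 2R from 7773766 to 7785749 (12.0 kb, 2.75) and 2L from 2744581 to 2760934 (16.4 kb, 2.68). The last 3 of the 10 were 3L from 7793173 to 7804108 (10.9 kb, 2.61), 2L from 5969313 to 5991113 (21.8 kb, 2.53) and 2R from 2510990 to 2527291 (16.3 kb, 2.51). Of the 10, only the clusters at 2.61 and 2.51 were broken, each into 2 pieces in both libraries, and the second of them at nearly the same place (1202 and 1156 bp).

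The weakest broad clusters were in pieces. Besides the cluster on 3R at 0.42 and the 44.2 kb cluster on 3R at 0.63, they were 3R from 23754557 to 23765265 (10.7 kb, 0.53, in 3 and 2 pieces), 3L from 9826914 to 9837119 (10.2 kb, 0.56, in 2 and 3 pieces) and 2R from 20875702 to 20891292 (15.6 kb, 0.65, in 3 and 1 pieces). None of the 5 was whole in both libraries.

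Broad clusters usually had another cluster close by. The gap to the nearest cluster of any width had a median of 1416 bp for broad clusters (quartiles 439 and 4832 bp) and 2017.5 bp for narrower autosomal ones (639 and 6268.75 bp). It was under 1 kb for 43.2% of broad and 33.1% of narrower clusters, and under 50 kb for 98.9% and 98.1%. Widths and gaps come from the same calls, so the difference has no test. In the replicate lists, taken alone, the median gap of broad clusters was 2119 and 1819 bp. On both sides together the median gap was 4471 bp, 80 of 285 had less than 5 kb on each side, and 40 bordered a gap of 50 kb or more.

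Like most autosomal clusters, the neighbours were mostly narrow, and they were mostly weaker than the broad cluster beside them. Their median width was 3181 bp (569 places beside a broad cluster) and their median log2 enrichment 0.72, and 448 of 569 (78.7%) had a lower log2 enrichment than the broad cluster beside them. Of the places, 56 (9.84%) were held by another broad cluster, where broad clusters made up 6.55% of all autosomal clusters. The neighbours' median log2 enrichment was close to the 0.70 of all narrower autosomal clusters. Neighbours nearer than 1 kb numbered 138, with a median of 0.63 and 3571 bp, and 120 of them were the lower. Of these 138, 107 overlapped a cluster of replicate 1, which was apart from those of the broad cluster in 105, and 120 overlapped one of replicate 2, which was apart in 115. Of the 22 autosomal clusters named as depleted in the combined list, 1 lay within 10 kb of a broad cluster, on 3R at 1322 bp from the cluster at 5321810 to 5344053.

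Few broad clusters stood alone. 3 had 50 kb or more without a cluster on both sides. On 3R, 28.9 kb from 24142473 to 24171382 (1.92) had 141861 bp free to its left and 172466 bp to its right, up to the broken cluster at 24343849 to 24367164 (0.88), which had 55628 bp free beyond it. The third was 2R from 9212303 to 9233614 (3.02), with 85238 and 91158 bp. These 3 thus include both strong and weak ones.

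At the other extreme, some broad clusters were nearly in contact. On 3R, 38 bp parted 19746740 to 19758675 (1.34) from 19758714 to 19769925 (1.09). On 3L, 51 bp parted 8087080 to 8103231 (0.84) from 8103283 to 8115851 (0.86), and on 2R, 138 bp parted 12011432 to 12034657 (2.13) from 12034796 to 12045711 (1.44). All 3 pairs were parted in both replicates as well, and in the third pair the first cluster was the higher in both (2.31 and 2.10, against 1.40 and 1.58). Of 281 pairs of successive broad clusters on an arm, 8 lay under 1 kb apart, 28 under 10 kb and 72 under 50 kb, and the median gap was 176277 bp. In 28 pairs no narrower cluster lay between.

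Joining those under 50 kb apart put 125 of 285 (43.9%) into 53 groups, of which 39 were pairs, 11 had 3 members, 2 had 4 and 1 had 6. The group of 6 lay near the tip of 2L, from 105199 to 308042 (203 kb). Broad clusters took 57.9% of that span, with log2 enrichment of 1.14 to 1.96. The next were groups of 4 on 2L from 19443566 to 19581344 and on 3R from 1388151 to 1499670.

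**Figure D5:**
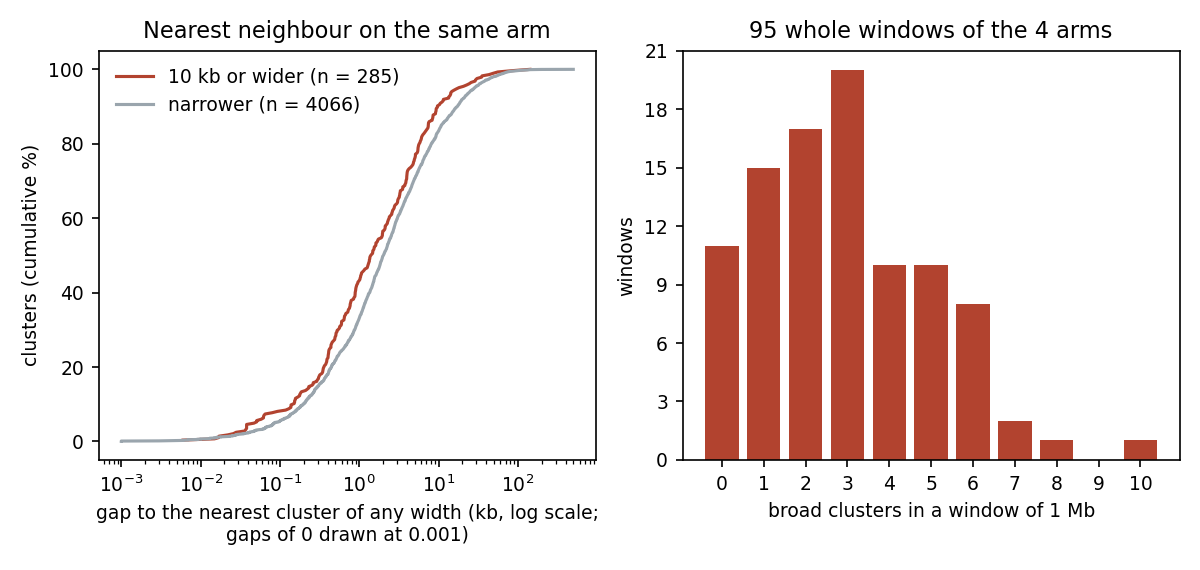
Left, cumulative percentage of broad and of narrower autosomal clusters by the gap to the nearest cluster of any width (kb, log scale); right, number of 1 Mb windows by how many broad clusters were centred in them. The medians at left are 1416 and 2017.5 bp, and at right 11 of 95 windows have none and 1 has 10.

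Along the arms, broad clusters were spread unevenly. Over 95 whole windows of 1 Mb the median was 3 broad clusters, 11 windows had none and 12 had 6 or more. The windows and stretches named here were chosen after their values were seen. The first 1 Mb of 2L held 10, with 7 and 9 in the lists of replicates 1 and 2 (8.00 ± 1.41, SD, n = 2), and 3R from 1000001 to 2000000 held 8, with 4 and 7 (5.50 ± 2.12). All autosomal clusters in these windows numbered 48 and 52, and broad ones made up 6.55% over the 4 arms. The longest stretch with no broad cluster measured 4.76 Mb, on 2L between the clusters ending at 13375255 and starting at 18136907, and 128 narrower clusters lay in it. The next, also on 2L, measured 1.90 Mb and held 58. These are 26.9 and 30.6 narrower clusters per Mb, against 42.1 over the 4 arms. Over the windows, the number of broad clusters and that of all autosomal clusters had a Spearman's rho of 0.40 (n = 95 windows of the same list, with broad clusters counted in both).

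The number of broad clusters differed between the ends of the arms, which was not tested. In the distal 2 Mb, towards the telomere, there were 12 on 2L, 11 on 3L, 10 on 3R and 6 on 2R. In the proximal 2 Mb, towards the centromere, there were 11 on 3R, 5 on 2L, 3 on 3L and 1 on 2R. In the first and second 1 Mb of each arm, all autosomal clusters numbered 48 and 33 on 2L and 60 and 48 on 3L (distal ends). They numbered 58 and 52 on 3R and 34 and 40 on 2R (proximal ends). All clusters were not counted over the last 2 Mb of the arms. In the distal parts, the counts of broad clusters in replicates 1 and 2 were 8 and 11 on 2L, 5 and 7 on 3L, 6 and 7 on 3R, and 3 and 7 on 2R. In the proximal parts they were 4 and 9 on 3R, 1 and 3 on 2L, 2 and 2 on 3L, and 0 and 0 on 2R. Centromeric heterochromatin is held at least partly in separate sequences, so the distance to the centromere is unknown. How much heterochromatin each stretch contains, and how much of it reads could be aligned to, was not examined.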

How the data were processed

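Per the submitters' processing notes, the aligner was Bowtie 0.12.7. Per the file headers, coordinates follow FlyBase release 5. How clusters were called, at which thresholds, with what use of the inputs, and how the replicates were pooled is not given in the sources used here. Each cluster's deposited number was taken as the authors' log2 enrichment, because differences between repeated scores matched ratios of whole numbers up to 14 in base 2 more often (167 of 8128 in the combined list, within 1e-08) than in natural logarithms (0) or base 10 (11).

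Broad clusters were taken by width, and the replicate lists joined to them by overlaps of 1 bp or more, with Python 3.11.15, numpy 2.4.6 and scipy 1.17.1. The interval functions were checked on simulated clusters with known breaks. The 2 libraries of 1 group allow no test, so p-values are not given. The members and the analyses were chosen with earlier results of these data known. The clusters named are the 10 widest, the 10 highest and 5 lowest in log2 enrichment, the widest of each arm, the 5 most broken with ties, the 3 longest shared breaks, the 3 most isolated, the 3 closest pairs and 3 on each side of the width minimum, and others are said to be picked later. Genes and sequences were not assigned, since the gene table used here follows release 6 and no coordinates were converted.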

Additional observations from a re-analysis of the deposited data

How the results depend on the processing

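Of 28 alternatives over 7 results, 12 moved them by less than the spread between replicates, the counting interval or, for the number of clusters, 1.5 times, and 16 moved them further. With a single replicate's list, broad clusters numbered 166 to 221 against 285, their median log2 enrichment was 1.54 to 1.67 and the median gap to the nearest neighbour 1819 to 2119 bp. Their share of the marked autosomal length was then 19.6 to 23.8%, the share covered 90.5 to 95.6% and the share whole 48.8 to 67.4%. The main share covered is the mean of the replicates, so each replicate alone was bound to lie within their spread. Those alternatives could not have moved it further. Joining neighbours under 500 bp gave 359 broad clusters. The share whole in both libraries was 75.8% when a replicate cluster only had to cover 50% of the broad cluster and the reverse, and 58.9% when breaks under 500 bp were ignored. Replicate clusters with a log2 enrichment of 1 or more covered 78.3% of the broad length. At a minimum of 20 kb, the gap was 2768 bp and the share of marked length 11.4%. With a log2 enrichment of 1 or more, the gap to such neighbours was 9682 bp and the share of marked length 41.0%. Shared breaks of replicate 1 came to 19.6% without breaks under 500 bp and 6.14% under 50% mutual overlap. Stricter rules leave fewer clusters or breaks by construction. No paired analysis was possible because the inputs, which share the replicate numbers, have no values here. Depth is unknown, so what it limits cannot be given.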
